A study of Mus musculus with 72 samples.

Results

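The genes described here are the 37 genes of the mouse mitochondrial chromosome, chosen by their symbols, which start with mt-, from the 55401 genes of the deposited expression tables. They comprise 13 protein-coding genes, 2 ribosomal RNA (rRNA) genes and 22 transfer RNA (tRNA) genes. The study asked what returning the clock factor Bmal1 (gene symbol Arntl) to skeletal muscle does in mice that lack it everywhere. RNA-seq of poly(A)-selected RNA was run on 72 libraries in 16 groups of male mice.

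The WT and Bmal1-KO mice came from heterozygous parents, and the KO lacked Bmal1 in every tissue. KO+AAV mice were Bmal1-KO mice that received, as neonatal pups, a systemic AAV9 virus carrying an HA-tagged Bmal1 cDNA under the CK6 promoter, which is meant to act in muscle fibers and not in heart or liver. Gastrocnemius, the large calf muscle, was sequenced at 10 weeks of age (6 WT, 6 KO and 7 KO+AAV libraries) and at 40 weeks (5 of each), from tissue taken at ZT1, shortly after lights on. In a separate experiment 3 KO mice that received the same kind of vector with GFP in place of Bmal1 were compared with 3 KO control mice, in gastrocnemius at 10 weeks. Liver, heart, white fat and lung of 40-week-old mice were sequenced from 4 KO and 4 KO+AAV mice each. No WT library was used here for these 4 tissues. The 10-week libraries of the main experiment came from 2 sequencing sites, ICBR (3 WT, 3 KO and 4 KO+AAV) and Novogene (3 of each). The 40-week gastrocnemius and GFP libraries came from Novogene, and all other tissues from ICBR.

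Mitochondrial DNA is a small circle that is present in many copies per cell and encodes only subunits of the respiratory chain and of ATP synthase, plus the rRNAs and tRNAs needed to translate them. Both strands are transcribed as long precursor RNAs. In most places tRNAs stand between the mRNAs and rRNAs, and cutting out the tRNAs frees the other RNAs, which then receive poly(A) tails. The 7 mt-Nd genes encode subunits of complex I, mt-Cytb encodes cytochrome b of complex III, mt-Co1, mt-Co2 and mt-Co3 encode the core of complex IV (cytochrome c oxidase), and mt-Atp6 and mt-Atp8 encode subunits of ATP synthase. Skeletal muscle and heart are rich in mitochondria, and their transcripts make up a large part of the mRNA there. A tissue sample with less of these RNAs can hold fewer mitochondria-rich cells or less RNA per cell, and these cannot be told apart here.

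All coordinates and sequences below are those of GRCm38, with sequences taken from the GENCODE vM21 transcripts. The order of the genes on the plus strand of chrM was mt-Rnr1 (chrM:70-1024), mt-Rnr2 (chrM:1094-2675), mt-Nd1 (chrM:2751-3707), mt-Nd2 (chrM:3914-4951), mt-Co1 (chrM:5328-6872), mt-Co2 (chrM:7013-7696), mt-Atp8 (chrM:7766-7969), mt-Atp6 (chrM:7927-8607), mt-Co3 (chrM:8607-9390), mt-Nd3 (chrM:9459-9806), mt-Nd4l (chrM:9877-10173), mt-Nd4 (chrM:10167-11544), mt-Nd5 (chrM:11742-13565) and mt-Cytb (chrM:14145-15288). The only protein-coding gene annotated on the minus strand was mt-Nd6 (chrM:13552-14070), which together with 8 tRNA genes forms the group called light-strand genes here. The other 28 are called heavy-strand genes. Each is a single-exon gene.

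Some neighboring genes share bases, and a read there can lie on both. How such reads were counted is not given in the sources used here. The ends that carry these overlaps are shown because the counts of mt-Atp8, mt-Nd4l, mt-Nd5 and mt-Nd6 touch them, with the shared bases in capitals.
mt-Atp8, bases 145 to 204: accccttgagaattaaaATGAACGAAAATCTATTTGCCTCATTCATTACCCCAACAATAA
mt-Atp6, bases 1 to 60: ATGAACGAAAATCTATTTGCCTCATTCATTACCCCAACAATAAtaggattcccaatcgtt
mt-Nd4l, bases 238 to 297: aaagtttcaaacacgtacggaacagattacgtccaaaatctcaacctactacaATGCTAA
mt-Nd4, bases 1 to 60: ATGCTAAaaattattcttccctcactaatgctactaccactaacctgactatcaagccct
mt-Nd5, bases 1795 to 1824: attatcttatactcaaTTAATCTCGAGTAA
mt-Nd6, bases 490 to 519: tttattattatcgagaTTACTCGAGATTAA
mt-Atp8 and mt-Atp6 share 43 bases and mt-Nd4l and mt-Nd4 share 7, on the same strand. mt-Nd5 and mt-Nd6 share 14 bases on opposite strands, so the 2 capital stretches are complements of each other. Whether the counting used strand is not given in the sources used here, and without strand the reads of a gene and of RNA copied from the other strand cannot be told apart.

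The mRNA genes mt-Co3, mt-Nd4 and mt-Cytb end on a lone T, which becomes a UAA stop codon only when the poly(A) tail is added. Their last 31 bases are shown because they tie these mRNAs to the poly(A) selection that made the libraries, with that T in capitals.
mt-Co3, bases 754 to 784: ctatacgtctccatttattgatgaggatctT
mt-Nd4, bases 1348 to 1378: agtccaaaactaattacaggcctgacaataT
mt-Cytb, bases 1114 to 1144: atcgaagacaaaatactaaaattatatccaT

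The nuclear genome carries copies of mitochondrial DNA, and one block of 7 annotated pseudogenes (chr1:24611535-24616197, minus strand) copies most of the stretch from mt-Co1 to mt-Nd4 at above 99% identity. A read that matches both places equally well cannot be assigned to either, and what the counting did with such reads is not given in the sources used here. Windows of 150 bases, the read length, that were found unchanged in another annotated transcript made up 99.44% of mt-Co2 and of mt-Atp6, 99.84% of mt-Co3, 96.98% of mt-Nd3 and 97.97% of mt-Nd4l. The shares were 59.15% in mt-Nd4 and 23.64% in mt-Co1, and 0 in mt-Nd1, mt-Nd2, mt-Nd5, mt-Nd6, mt-Cytb, mt-Atp8 and both rRNA genes. Only annotated transcripts were searched. The stretch between the mt-Atp6 copy (ending at chr1:24614651) and the mt-Co2 copy (starting at chr1:24614885), where a copy of mt-Atp8 would lie, was not. The share of 0 for mt-Atp8 therefore does not show that it has no nuclear copy. The closest copies differ from their genes by very little, which is shown with the differing bases in capitals.
mt-Nd3, bases 1 to 80: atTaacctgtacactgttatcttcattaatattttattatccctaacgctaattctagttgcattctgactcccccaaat
Gm28438, its copy: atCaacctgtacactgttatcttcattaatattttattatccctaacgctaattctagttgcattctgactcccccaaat
mt-Co1, bases 1063 to 1142: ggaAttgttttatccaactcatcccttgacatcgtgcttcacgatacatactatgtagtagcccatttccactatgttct
Gm29216, its copy: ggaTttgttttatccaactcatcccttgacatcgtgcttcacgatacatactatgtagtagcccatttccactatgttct
mt-Cytb, bases 2 to 81: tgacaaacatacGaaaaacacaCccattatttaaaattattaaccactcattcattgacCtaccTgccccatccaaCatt
Gm11410, its copy: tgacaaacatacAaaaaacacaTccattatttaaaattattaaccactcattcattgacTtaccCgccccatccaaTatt
Counted from 1 at the 5′ end of the gene, with the gene's base first and the copy's base last, T3C is the only difference between mt-Nd3 and Gm28438 over 345 aligned bases and A1066T the only one between mt-Co1 and Gm29216 over 483. The copies of mt-Co2 (Gm28661), mt-Atp6 (Gm10925), mt-Co3 (Gm28437), mt-Nd4l (Gm10222) and the first 876 bases of mt-Nd4 (Gm28439) had no difference. The mt-Cytb copy on chromosome 4 (Gm11410) had 81 mismatches over 1142 bases, among them G14A, C24T, C61T, T66C and C78T in the stretch shown, so reads of mt-Cytb can be told from it.

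The libraries held 6754312 to 50755829 reads on genes (median, 36565794), with the GFP experiment lowest (6754312 to 8515400) and the 4 other tissues highest (36903079 to 50755829). The labelled tissues matched their markers. In CPM (reads scaled to equal library totals), fast fiber markers summed to at least 104741 in gastrocnemius, hepatocyte markers to at least 44076 in liver, lung epithelium markers to at least 55530.4 in lung, cardiomyocyte markers to at least 20144 in heart and adipocyte markers to at least 16841 in KO+AAV white fat. Several libraries stood apart. The library labelled KO heart replicate 2 held 31139 CPM of hepatocyte markers against at most 9.34 CPM in the other KO hearts, and KO white fat replicate 2 held 31054 CPM of epididymis markers and 4252 CPM of adipocyte markers. KO+AAV lung held more cardiomyocyte markers (1695 to 5778 CPM) than KO lung (111 to 1138 CPM). KO lung replicate 3 held 204 CPM of brown adipocyte markers, against at most 37.6 CPM in the other lung libraries.

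Arntl, the targeted gene, was 402 to 634 normalized counts in 10-week WT and 196 to 296 in KO gastrocnemius, and it was higher in WT by 1.14 on the log2 scale (adjusted P = 6.59e-05). The RNA of the deleted gene is still counted in the KO, and the level did not separate KO+AAV (169 to 281) from KO at 10 weeks (log2 fold change −0.06, adjusted P = 0.962). At 40 weeks the library labelled KO replicate 2 stood at 1039, above all 5 WT libraries (480 to 608), while the other 4 KO libraries were at 308 to 395. This library goes against its label, so the 40-week differences of WT and KO+AAV from KO, and the medians with age, are given below with and without it. Outside muscle, Arntl was called higher in KO+AAV than KO in liver only (0.58, adjusted P = 0.997), where 0.546% of all genes were called. It stood at 781 to 1231 in KO+AAV and 584 to 679 in KO liver. The differences were 0.32 in heart, 0.13 in lung and −0.01 in white fat, and their cause was not tested.

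The 13 mRNAs of the mitochondrial chromosome took between 1.75% and 24.2% of the reads on genes in a library. Heart was highest, with a median of 22.6% (21.5% to 24.2%) in KO+AAV and 19.9% (11.04% to 23.9%) in KO. The lowest KO heart value was that of replicate 2, the library with hepatocyte markers. All 8 gastrocnemius groups followed with medians between 7.21% (10-week KO+AAV) and 10.5% (KO+GFP), with single libraries from 6.32% to 12.4%. Their ranges overlapped one another, except that KO control (6.92% to 8.26%) lay below 40-week WT (9.05% to 11.2%). White fat (medians 3.66% in KO and 3.87% in KO+AAV) and liver (3.69% in KO and 3.77% in KO+AAV) could not be ranked against each other, since the ranges of both liver groups lay inside that of KO+AAV white fat (3.12% to 5.34%). Lung was lowest, at a median of 1.91% (1.75% to 2.26%) in KO and 2.52% (1.83% to 2.87%) in KO+AAV. The 2 deposited tables were normalized separately, and site and tissue overlap only in gastrocnemius, so this order is a description.

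**Figure D1:**
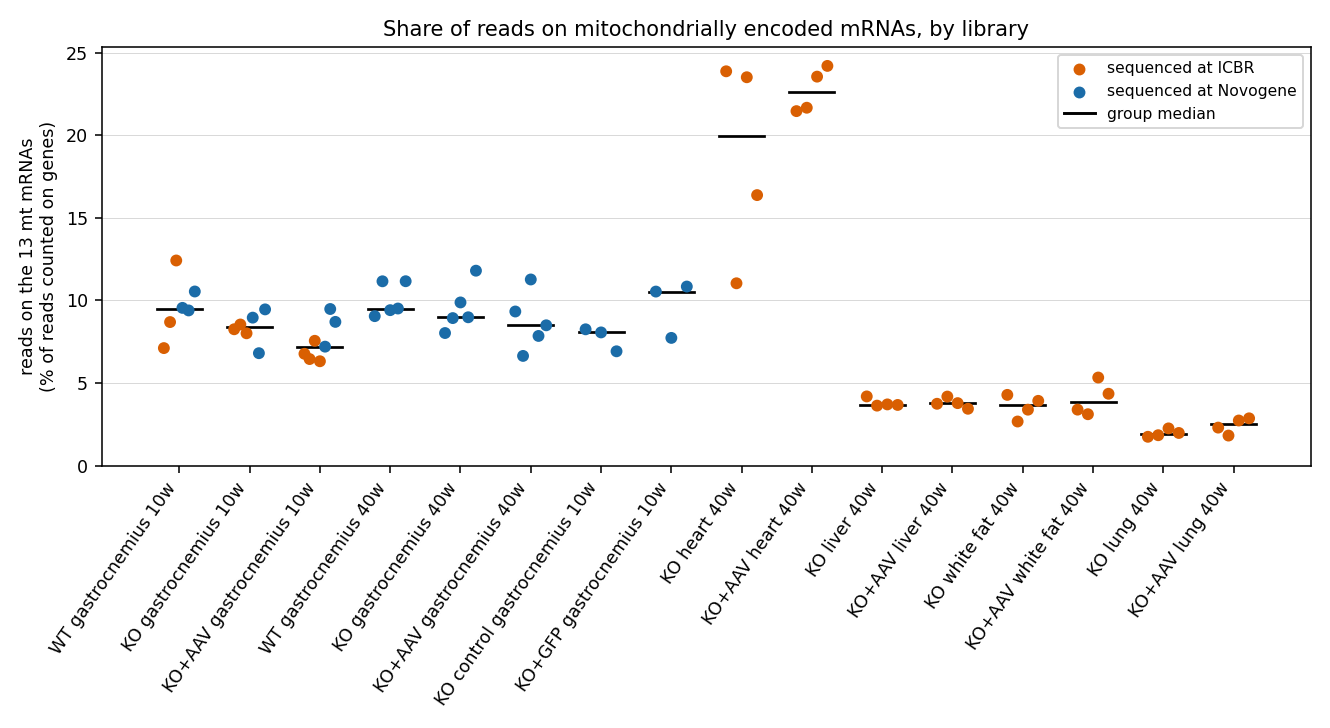
Percent of the reads counted on genes that fell on the 13 mitochondrial mRNAs (y axis), for each of the 72 libraries in 16 groups; points are libraries colored by sequencing site and horizontal lines are group medians. Heart libraries reach 24.2%, gastrocnemius libraries lie between 6.32% and 12.4%, and lung libraries lie at or below 2.87%.

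Within a library the mRNAs differed widely in level. Per kilobase of gene and relative to mt-Cytb in the same library, the median over the 72 libraries was 156% for mt-Co1, 76.5% for mt-Nd1, 58.2% for mt-Nd2, 43.1% for mt-Nd5 and 35.8% for mt-Nd4. The 5 genes with a near-complete nuclear copy were all far lower on this scale, at 1.91% for mt-Co2, 1.14% for mt-Co3, 0.989% for mt-Atp6, 0.194% for mt-Nd3 and 0.171% for mt-Nd4l. mt-Atp8 had 0 reads in 15 libraries and a median of 0.0041% of mt-Cytb. Its bases 162 to 204 are shared with mt-Atp6, and so with the copy of mt-Atp6 on chromosome 1. The part of ambiguous reads in the low count of mt-Atp8 was not tested. The copies on chromosome 1 were counted too, at a median of 0.367 reads per read on mt-Co2, 0.627 on mt-Co3 and 1.45 on mt-Atp6, but at 0.00101 on mt-Co1 and 0.00495 on mt-Nd4, the genes with long stretches of their own. The rRNAs, which carry short tails at most, stood at 7.34% (mt-Rnr1) and 9.64% (mt-Rnr2) of mt-Cytb per kilobase. The part of ambiguous reads in the low counts of the 5 copied genes was not tested. Their counts are therefore reported as uncertain throughout. The levels of mt-Nd4 and mt-Co1 per kilobase also include their copied stretches (59.15% and 23.64% of windows), and the part of ambiguous reads there was not tested.

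tRNA genes are shorter than a read and were counted little. Of the 22, mt-Tr and mt-Ts2 had 0 reads in all 72 libraries, 14 (these 2 among them) had 0 reads in most of them, and 4 (mt-Tq, mt-Tw, mt-Tt and mt-Tp) had reads in every library. In the main gastrocnemius experiment 8 passed the filter on low values, a mean above 5 normalized counts.

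The sequencing site was the strongest divide among the gastrocnemius libraries for these genes. In the fit across all 34 main libraries, with Novogene minus ICBR as a term, 22.5% of the 16199 genes tested were called, 15.6% higher and 6.94% lower in Novogene. A gene is said here to be called, higher, lower, risen or fallen when its unadjusted limma P was under 0.01. The study used this threshold with another test, DESeq2, whose counts of called mRNAs are given below as an alternative. The adjusted P printed beside a gene is the Benjamini-Hochberg value over all genes tested. Of the 12 mt mRNAs tested, 1 was called higher and 5 lower in Novogene, both rRNAs were lower, and 6 of 8 tRNAs were higher. mt-Nd6, a complex I subunit and the light-strand mRNA, was at 1788 to 3486 normalized counts in the ICBR and 40823 to 76275 in the Novogene libraries of the main experiment. The ranges lay far apart, a log2 difference of 4.42 ± 0.10 (SE) with an adjusted P = 1.58e-27. All 7 light-strand genes tested were higher in Novogene, including mt-Tq (3.13), mt-Tp (3.95), mt-Ta (5.10), mt-Ty (6.57), mt-Ts1 (7.72) and mt-Te (9.04 on the log2 scale). Light-strand genes took 0.16% to 0.27% of mitochondrial reads in ICBR gastrocnemius libraries and 3.73% to 4.86% in the Novogene ones, GFP experiment included.

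The 5 genes with near-complete copies were called lower in Novogene, namely mt-Co2 (−1.05 ± 0.24, adjusted P = 0.000837), mt-Atp6 (−1.31 ± 0.26, adjusted P = 0.000118), mt-Co3 (−0.90 ± 0.22, adjusted P = 0.00145), mt-Nd3 (−1.54 ± 0.22, adjusted P = 7.1e-07) and mt-Nd4l (−1.42 ± 0.42, adjusted P = 0.0101). All 7 copies on chromosome 1 were lower as well, by 0.95 to 2.40. The rRNAs were lower by 0.80 (mt-Rnr1, adjusted P = 0.000281) and 1.57 (mt-Rnr2, adjusted P = 8.13e-10). The other 6 heavy-strand mRNAs, with no or partial copies, did not pass the test, with differences of 0.12 for mt-Nd1, −0.15 for mt-Nd2, 0.20 for mt-Co1, 0.23 for mt-Nd4, 0.02 for mt-Nd5 and −0.02 for mt-Cytb. What set the sites apart was not tested. Since each 10-week group was split over both sites and site was a term in the fit, comparisons of genotype are made within site. Light-strand genes had low counts in ICBR libraries. These libraries enter the 10-week comparisons with equal weight, and those in lung, heart, liver and white fat rest on ICBR libraries alone.

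**Figure D2:**
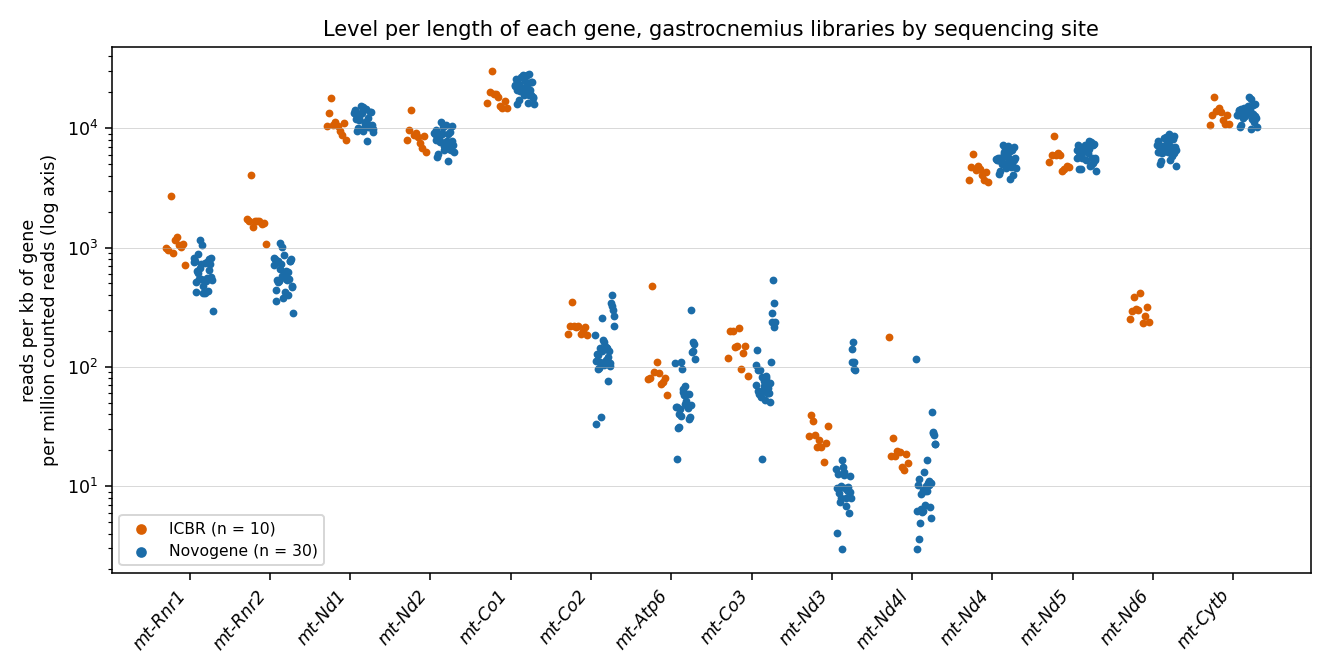
Reads per kilobase of gene, scaled to equal library totals (CPM per kilobase, log axis), for 14 mitochondrial genes, mt-Atp8 left out, in the 40 gastrocnemius libraries, by site (ICBR, n = 10; Novogene, n = 30); each point is a library. mt-Nd6 is the only mRNA whose sites do not overlap, and mt-Co2, mt-Atp6, mt-Co3, mt-Nd3 and mt-Nd4l lie far below mt-Co1 and mt-Cytb.

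In 10-week-old gastrocnemius the large rRNA mt-Rnr2 rose in WT over KO, and none of the 12 mRNAs tested passed the test. Across all genes 10.9% were called in this comparison, 5.7% higher in WT. At an unadjusted P under 0.05 there were 2 mRNAs. The 12 mRNAs had a median log2 fold change (WT minus KO) of 0.22, with 11 above 0, against a median of −0.00742 over all genes. By the other tests, edgeR called 2 mRNAs and DESeq2 called 3. Without WT replicate 4, the library with the most mitochondrial reads of its group, the median was 0.079, and without WT replicate 7 limma called 1 mRNA. In none of the 14 mRNA and rRNA genes were the groups apart, where 6.06% of all genes had groups without overlap.

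mt-Rnr2, the large mitochondrial rRNA, stood at 44942, 45755 and 101049 normalized counts in the WT and at 37880, 41651 and 42812 in the KO libraries from ICBR. In the Novogene libraries the WT values were 17544, 21865 and 22403 and the KO values 9662, 11203 and 14209. WT lay above KO at each site, where 26.4% (ICBR) and 20.8% (Novogene) of all genes had groups without overlap. The log2 fold change was 0.68 ± 0.21 (limma, adjusted P = 0.0344). It was not past the threshold without WT replicate 4 (0.52), without the site term (0.68) or in the ICBR libraries alone (0.54, adjusted P = 0.465). It was past it in the Novogene libraries alone (0.83, adjusted P = 0.143). mt-Rnr1, the small rRNA, differed by 0.48 ± 0.21 (adjusted P = 0.179).

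Of complex I, mt-Nd1 ranged from 168462 to 268495 (median, 223953) in WT and from 155622 to 200809 (median, 166795) in KO. The groups overlapped, with 4 of the 6 WT values above the highest KO value, and the log2 fold change was 0.34 ± 0.14 (adjusted P = 0.163). The fold changes were 0.33 for mt-Nd2 (adjusted P = 0.218), 0.19 for mt-Nd5 (adjusted P = 0.528), 0.11 for mt-Nd4 and 0.07 for mt-Nd6. mt-Cytb, of complex III, stood at 205967 to 327366 (median, 254158) in WT and 202327 to 279909 (median, 254198) in KO. The medians were nearly the same, and the log2 fold change was 0.03 ± 0.15 (adjusted P = 0.951). For complex IV, mt-Co1 differed by 0.25 ± 0.18 (adjusted P = 0.509), mt-Co2 by −0.10 ± 0.30 and mt-Co3 by 0.28. Of the other copied genes, mt-Atp6 differed by 0.41 ± 0.32, mt-Nd4l by 1.003 ± 0.53 and mt-Nd3 by 0.09. None of the 8 tRNAs was called.

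Returning Bmal1 to the muscle fibers was followed by no called change at 10 weeks. In KO+AAV against KO 2.63% of all genes were called, and 0 of the 12 mRNAs, by limma, edgeR and DESeq2 alike. All 12 mRNAs were nominally lower in KO+AAV, from −0.35 (mt-Co3) to −0.12 (mt-Co2), with a median of −0.187 against 0.00925 over all genes. None of the 12 had an unadjusted P under 0.05. The smallest P was that of mt-Nd5 (−0.24 ± 0.14, adjusted P = 0.628). The rRNAs differed by 0.05 (mt-Rnr1) and 0.11 (mt-Rnr2), and 0 of 8 tRNAs was called.

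WT and KO+AAV differed more, with 8.75% of all genes called, 4.73% higher and the rest lower in WT. Higher in WT were 3 complex I mRNAs and mt-Rnr2. mt-Nd1 ranged from 110797 to 188469 (median, 153837) in KO+AAV, below the WT median of 223953, with overlap at the ends. Its log2 fold change was 0.47 ± 0.14 (adjusted P = 0.0402). For mt-Nd2, WT ranged from 139101 to 233499 (median, 164447) and KO+AAV from 93885 to 157402 (median, 128659), a difference of 0.48 ± 0.15 (adjusted P = 0.05). For mt-Nd5, WT ranged from 160946 to 247026 (median, 185457) and KO+AAV from 124885 to 170683 (median, 144621), a difference of 0.43 ± 0.14 (adjusted P = 0.0655). mt-Rnr2 differed by 0.57 ± 0.20 (adjusted P = 0.0956). In each of these genes the groups overlapped, as in all 14 mRNA and rRNA genes tested, where 2.86% of all genes had groups apart.

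These calls rested on few libraries. Without WT replicate 4 only mt-Nd1 was called (0.39), and mt-Nd2 (0.39) and mt-Nd5 (0.35) were not. mt-Nd5 was not called without WT replicate 7 (0.38) or KO+AAV replicate 5 (0.38), nor mt-Rnr2 without any 1 of 6 libraries, WT replicates 4, 6 and 7 and KO+AAV replicates 4, 5 and 7 (0.41 to 0.67 over all 13 omissions). With array weights mt-Nd2 (0.325), mt-Nd5 (0.31) and mt-Rnr2 (0.351) were not called. The mt-Rnr2 call was also lost with no filter on low values, without the site term or when scaled to total reads. Within 1 site, where fewer libraries enter, no mRNA was called. mt-Nd1 differed by 0.54 in ICBR (adjusted P = 0.357) and 0.39 in Novogene (adjusted P = 0.589), mt-Nd2 by 0.50 and 0.44, and mt-Nd5 by 0.47 and 0.36. All 12 mRNAs were nominally higher in WT, with a median of 0.417 (all genes, −0.0243), from 0.02 for mt-Co2 to 1.29 for mt-Nd4l. mt-Cytb differed by 0.21 (adjusted P = 0.479), mt-Co1 by 0.41 (adjusted P = 0.193) and mt-Atp6 by 0.69 (adjusted P = 0.225). edgeR and DESeq2 each called 6 of the 12. WT and KO+AAV are compared with KO in the same fit, so these 3 comparisons share libraries.

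**Figure D3:**
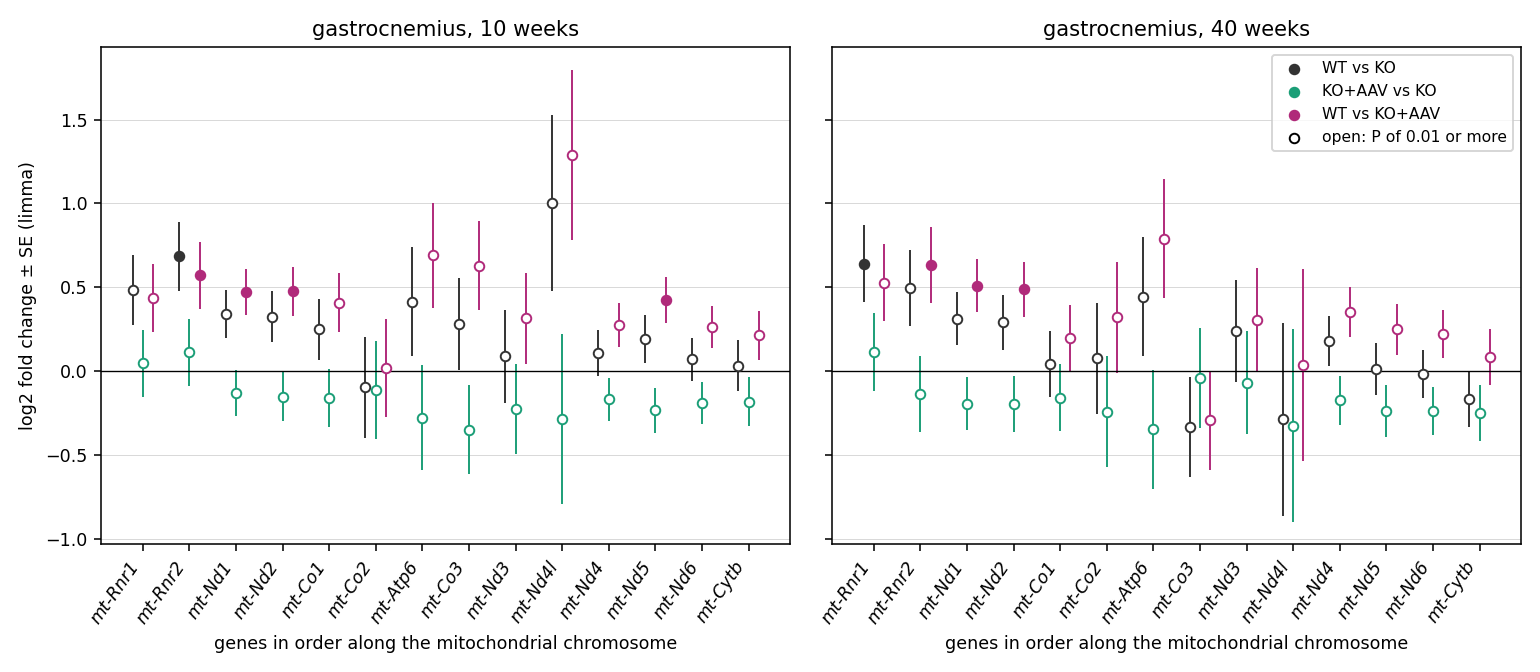
Log2 fold change ± SE (y axis) of 14 mitochondrial genes in chromosome order for 3 comparisons in gastrocnemius, at 10 weeks and at 40 weeks; filled points have P under 0.01. mt-Nd1 and mt-Nd2 are filled in WT against KO+AAV at both ages, and no mRNA is filled in KO+AAV against KO.

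At 40 weeks 22.5% of all genes were called between WT and KO (11.5% higher in WT), and again 0 of 12 mRNAs, by limma, edgeR and DESeq2. Their median log2 fold change was 0.0588 (8 above and 4 below 0; all genes, 0.0109), and it lay between 0.00432 (without WT replicate 2) and 0.156 (without WT replicate 1) when each library was left out in turn. None of the 12 had an unadjusted P under 0.05 in limma, and in none of the 14 mRNA and rRNA genes were the groups apart, as they were in 13.6% of all genes. mt-Nd1 differed by 0.31 ± 0.16 (adjusted P = 0.153), mt-Nd2 by 0.29 (adjusted P = 0.212), mt-Cytb by −0.17 ± 0.17 (adjusted P = 0.514) and mt-Co3 by −0.33. The small rRNA rose. mt-Rnr1 stood at 11083, 17883, 11493, 8963 and 15770 in the 5 WT libraries and at 6891, 8551, 7625, 6640 and 11748 in the 5 KO libraries. KO replicate 5 lay among the WT values and the other 4 KO libraries below them all, with a log2 fold change of 0.64 ± 0.23 (adjusted P = 0.041). Of 10 omissions of 1 library (0.52 to 0.77) it kept the call only in those of KO replicate 5 and WT replicates 1 and 4. The mt-Rnr1 call was also lost with no filter on low values and without the site term. mt-Rnr2 differed by 0.50 ± 0.23 (adjusted P = 0.112).

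One light-strand tRNA gene was also called at 40 weeks. mt-Ts1, a serine tRNA gene that ends against mt-Co1 on the opposite strand and shares 3 bases with it, stood at 261, 3150, 1078, 4888 and 3092 normalized counts in WT, and between 544 and 952 in KO and 461 and 792 in KO+AAV. WT replicate 1 lay below all KO and KO+AAV libraries and the other 4 WT libraries above them. The difference from KO was 1.39 ± 0.48 (adjusted P = 0.0345), kept, over 10 omissions (1.01 to 2.06), only in those of KO replicate 5 and WT replicates 1 and 3. The difference from KO+AAV was 1.56 ± 0.48 (adjusted P = 0.029), lost without WT replicate 2 (1.33), 4 (1.18) or 5 (1.34). Both calls were lost with the groups compared alone or without the site term, and that against KO also with no filter on low values or a smaller pseudocount.

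Leaving out KO replicate 2, whose Arntl level goes against its label, gave 19.8% called genes, a median of 0.0774 for the mRNAs and again no called mRNA. mt-Rnr2, at 25520 in KO replicate 2 and 10383 to 16629 in the other 4 KO libraries, passed the test without it (0.70 ± 0.22, adjusted P = 0.0223). In the same fit mt-Rnr1 (0.66, adjusted P = 0.0567) and mt-Ts1 (1.37, adjusted P = 0.0605) did not. With KO replicate 2 kept, leaving out WT replicate 1 gave 1 called mRNA.

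KO+AAV against KO at 40 weeks gave 3.25% called genes and 0 of 12 mRNAs, by all 3 tests, with none at an unadjusted P under 0.05. As at 10 weeks, all 12 were nominally lower in KO+AAV, with a median of −0.217 (all genes, 0.0161), from −0.35 (mt-Atp6) to −0.04 (mt-Co3). Without KO+AAV replicate 2 the median was −0.131. Without KO replicate 2 it was −0.192, 11 of 12 were below 0 (mt-Co3, 0.07) and 3.18% of genes were called. No rRNA or tRNA was called.

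WT against KO+AAV at 40 weeks gave 14.6% called genes, 7.14% higher in WT. mt-Nd1 stood at 216383, 239576, 214491, 218586 and 227452 in WT and at 174307, 126326, 176483, 158346 and 153683 in KO+AAV. All 5 WT values lay above all 5 KO+AAV values, a log2 fold change of 0.51 ± 0.16 (adjusted P = 0.0293). mt-Nd2 stood at 157341, 190062, 154185, 163589 and 166420 in WT and at 136298, 94314, 140865, 111923 and 114447 in KO+AAV. The groups were again apart, with a difference of 0.49 ± 0.17 (adjusted P = 0.0489). mt-Rnr2 was at 15730 to 28123 in WT and 10285 to 14849 in KO+AAV, a difference of 0.63 ± 0.23 (adjusted P = 0.0628).

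The groups were without overlap in 4 mRNA and rRNA genes, these 3 and mt-Atp6 (617 to 1287 in WT and 420 to 608 in KO+AAV; 0.79 ± 0.35, adjusted P = 0.15), against 11.7% of all genes. Without KO+AAV replicate 2, the lowest of its group in mt-Nd1 and mt-Nd2, no mRNA was called (mt-Nd1 0.43; mt-Nd2 0.41). One was called without KO+AAV replicate 4 or 5 or WT replicate 2 or 5, and 3 without WT replicate 1. The mt-Rnr2 call was kept, over 10 omissions (0.52 to 0.73), only in those of KO+AAV replicate 3 and WT replicates 1 and 4. It was also lost with no filter on low values, without the site term, and when scaled to total reads (0.59) or to reads outside the mitochondrial chromosome (0.61). The mt-Nd2 call was lost with the groups compared alone and with a replicate block. The median of the 12 mRNAs was 0.277, with 11 above 0 (all genes, −0.000111), and 0.172 without WT replicate 2. mt-Nd4 differed by 0.35 (adjusted P = 0.12), mt-Cytb by 0.08 (adjusted P = 0.803) and mt-Co3 by −0.29. edgeR called 2 mRNAs and DESeq2 called 3.

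The balance between 2 abundant mRNAs without exact copies separated WT from the other main groups. The log2 ratio of mt-Nd1 to mt-Cytb, chosen after the values were seen and therefore given with no test, compares reads within a library and does not depend on its scaling. At 10 weeks it was −0.29 to −0.16 in the 6 WT libraries, −0.65 to −0.38 in the 6 KO and −0.68 to −0.34 in the 7 KO+AAV libraries. At 40 weeks it was −0.26 to −0.15 in WT, −0.75 to −0.55 in KO and −0.78 to −0.48 in KO+AAV. WT lay above both other groups at both ages, and KO and KO+AAV covered nearly the same range. The mean difference between WT and KO was 0.31 at 10 weeks and 0.48 at 40 weeks, and that between KO+AAV and KO was 0.04 and 0.05. At 10 weeks the same order was seen in the ICBR libraries (WT −0.29 to −0.20, KO −0.65 to −0.63, KO+AAV −0.68 to −0.48) and in the Novogene libraries (WT −0.25 to −0.16, KO −0.48 to −0.38, KO+AAV −0.50 to −0.34). KO replicate 2 of the 40-week group lay with the other KO libraries. The ratio of the 6 libraries of the GFP experiment, all KO, ran from −0.57 to −0.37. This pair was not the only one to separate WT. The log2 ratio of mt-Nd2 to mt-Cytb at 10 weeks was −0.702 to −0.487 in WT, −0.997 to −0.805 in KO and −0.942 to −0.734 in KO+AAV. At 40 weeks it was −0.682 to −0.527 in WT, −1.161 to −0.92 in KO and −1.103 to −0.978 in KO+AAV. How many other gene pairs separate these groups was not counted.

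**Figure D4:**
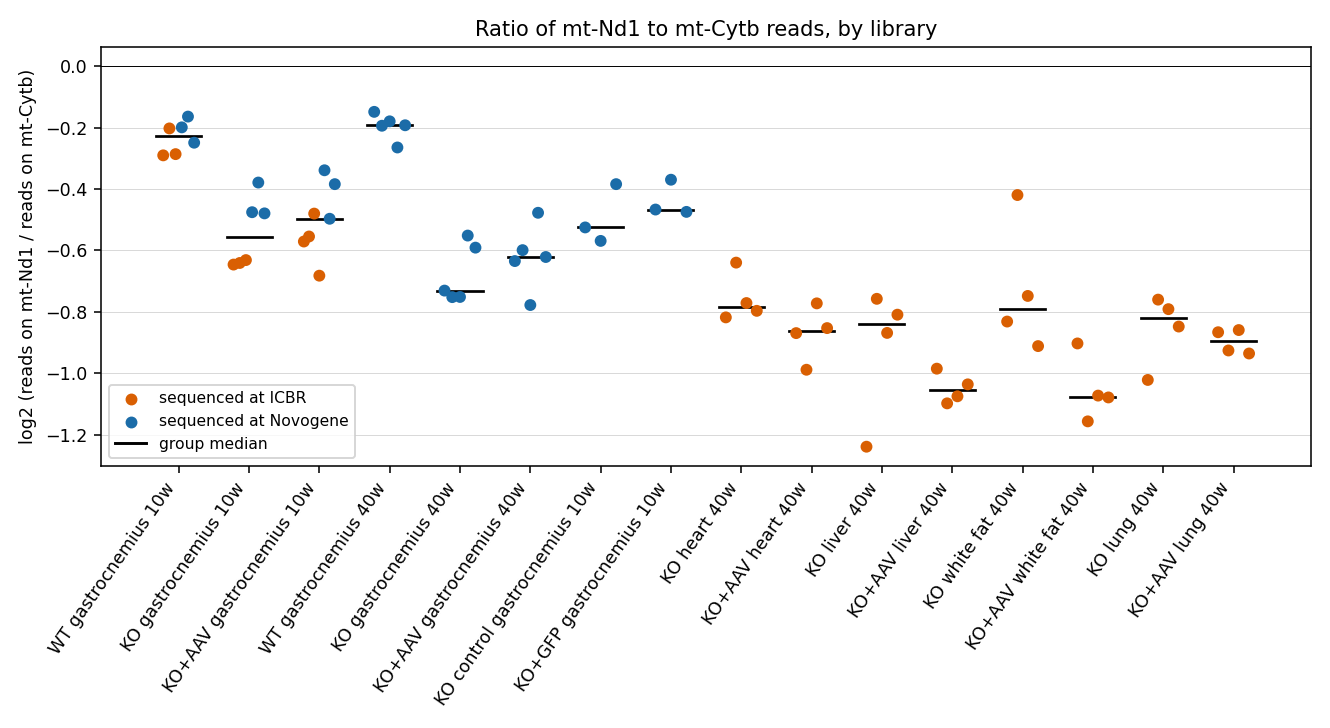
Log2 ratio of mt-Nd1 to mt-Cytb reads (y axis) in each library of the 16 groups, colored by site. The 11 WT gastrocnemius libraries lie between −0.29 and −0.15 and the KO and KO+AAV gastrocnemius libraries of the main experiment between −0.78 and −0.34.

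Age made no called difference to the mRNAs in any group by limma. Of all genes, 2.27% were called between 40 and 10 weeks of age in WT mice (1.22% higher at 40 weeks), and 12.1% both among KO and among KO+AAV mice, with 0 of 12 mRNAs in each of the 3 groups. Their median differences were 0.0573, 0.172 and 0.128, and that in KO was 0.156 without 40-week KO replicate 2. With each library left out in turn the median ran from −0.00363 to 0.112 in WT, from 0.101 to 0.232 in KO and from 0.0697 to 0.213 in KO+AAV. The nearest was mt-Co3 in WT, at 955 to 2625 (median, 1710) at 10 weeks and at 227, 1051, 834, 924 and 946 at 40 weeks. WT replicate 1 was lowest at 40 weeks and 1 other 40-week value lay within the 10-week range. Of the 10-week libraries 3 came from the other site, and with the site term the difference was −0.81 ± 0.31 (adjusted P = 0.466). edgeR and DESeq2 each called 1 mRNA lower in WT and 0 in the other 2 groups. So did limma in WT without 10-week replicate 2 or 6 or 40-week replicate 2, 4 or 5, while without 10-week replicate 4 or 40-week replicate 1 it called 1 higher. At an unadjusted P under 0.05 limma had 1 mRNA, mt-Co3, in WT and 0 in the other 2 groups. mt-Ts1 was higher at 40 weeks in WT (1.66 ± 0.49, adjusted P = 0.249), but not without 40-week WT replicate 4 (1.27), with the groups compared alone (1.63) or with a replicate block (1.97). Whether the WT-KO or KO+AAV-KO difference changed with age was tested directly. With 4.47% and 1.08% of genes called for these interactions, 0 mRNAs were called by limma (0 also at an unadjusted P under 0.05), and edgeR and DESeq2 each called 1 lower in the first. Their medians were −0.0616 and −0.0418, and −0.0317 and −0.00026 without 40-week KO replicate 2. Other omissions put both on either side of 0 (−0.147 to 0.0119 and −0.0975 to 0.0381).

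Many of the nuclear genes that supply the rest of the same complexes were lower in WT than in KO. In a list of 24 nuclear-encoded subunits of complexes I, III, IV and V, the 10-week median was −0.301, with 24 of 24 below 0. Called lower in WT were 12 of them (5.15% of all genes were called lower), and none was called higher. Among them were Cox5a (−0.44, adjusted P = 0.0049), Cox6b1 (−0.40, adjusted P = 0.0216) and Cox5b (−0.40, adjusted P = 0.0249), subunits of complex IV, and Atp5a1 (−0.41, adjusted P = 0.0181), a catalytic-domain subunit of ATP synthase. Without WT replicate 4 the count was 16 and the median −0.353. At 40 weeks 14 were called lower (10.9% of all genes) with a median of −0.383, with and without KO replicate 2. Among these were Uqcrfs1, the Rieske protein, and Uqcrc2, both of complex III (−0.52, adjusted P = 0.00326, and −0.53, adjusted P = 0.00435), and Cox5a (−0.44, adjusted P = 0.00499).

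Against KO the subunits in KO+AAV leaned the same way as WT. At 10 weeks 0 of 24 were called (median, −0.176; smallest P, Ndufs3 at −0.21, adjusted P = 0.43). At 40 weeks 6 were called lower, where 1.23% of all genes were, with a median of −0.303 and 24 of 24 below 0, among them Atp5e (−0.33, adjusted P = 0.226) and Cox5b (−0.38, adjusted P = 0.254). Without KO replicate 2 the count was 5. Between WT and KO+AAV, 0 were called at 10 weeks (median, −0.14) and only Atp5e, higher in WT, at 40 weeks (0.42, adjusted P = 0.00721; median, −0.0709). Slow fiber markers, a list of 8 genes typical of the more oxidative fibers, summed to 581 to 11730.5 CPM in 40-week KO, 105 to 1887 in WT and 233 to 2225 in KO+AAV. At 10 weeks the sums were 134 to 4396 in KO, 162 to 1288 in WT and 240 to 2911 in KO+AAV. Their groups overlapped, 0 of 8 were called in any of these comparisons, and their part in the subunit differences was not tested.

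**Figure D5:**
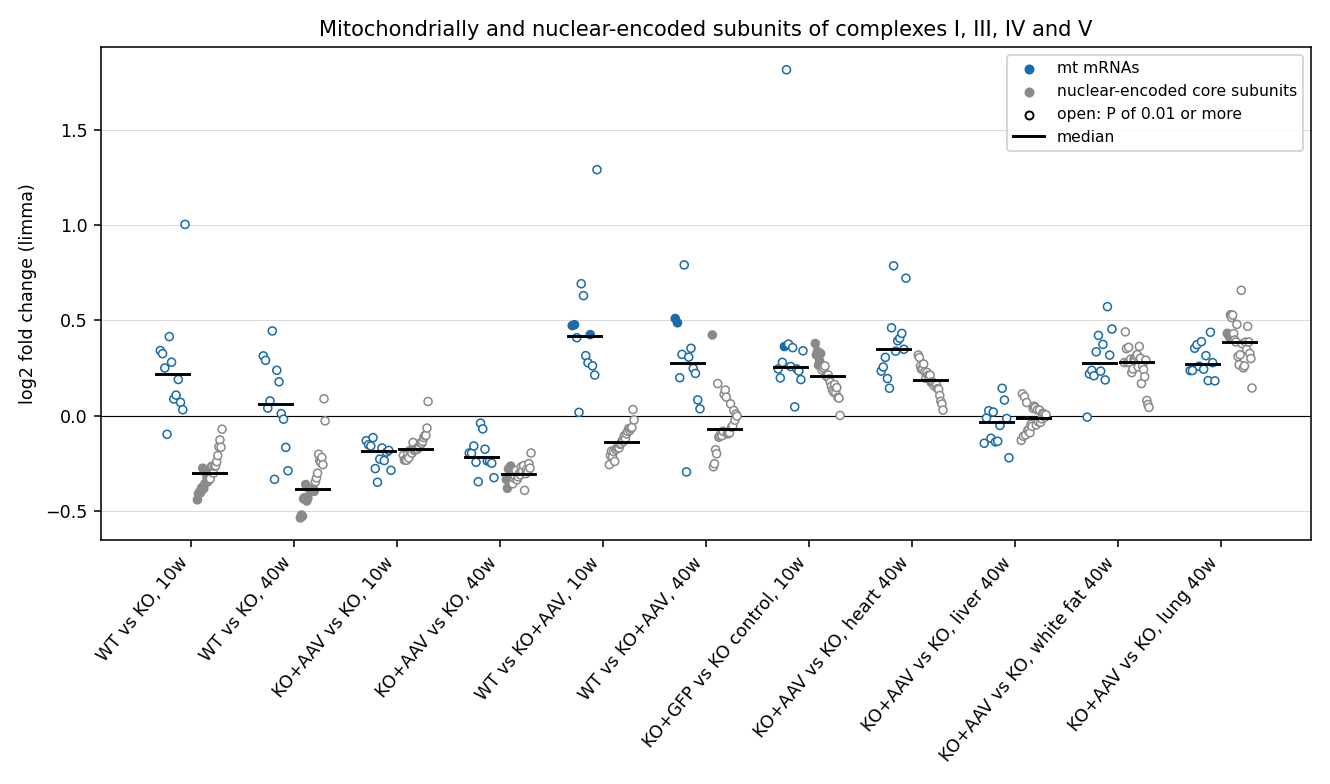
Log2 fold changes (y axis) of the mitochondrial mRNAs and of the 24 nuclear-encoded subunits in 11 comparisons; each point is a gene, filled where P is under 0.01, and lines are medians. In WT against KO the nuclear medians are −0.301 and −0.383 and the mitochondrial ones 0.22 and 0.0588.

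Markers of other cell types in the 6 comparisons between genotypes in gastrocnemius were called singly. Of all genes, 10.9% were called between WT and KO, 2.63% between KO+AAV and KO and 8.75% between WT and KO+AAV at 10 weeks, and 22.5%, 3.25% and 14.6% at 40 weeks. Of 10 macrophage markers 1 was higher in KO+AAV than KO at 10 weeks (median, 1.31; sums of 52.8 to 686 CPM, with KO+AAV replicate 5 at the top and the next at 195, against 25.5 to 86.6 CPM in KO). Of 12 fast fiber markers 1 was lower in WT than KO+AAV at 10 weeks and 1 higher in WT than KO at 40 weeks. Of 5 erythrocyte markers 1 was higher in WT than KO at 10 weeks, of 5 endothelium markers 1 was lower in WT than KO at 40 weeks, and of 5 Schwann cell markers 0 were called. Of the 3 cardiomyocyte markers tested 1 was lower in WT than in KO and than in KO+AAV at both ages, as was 1 of 3 brown adipocyte markers at 40 weeks.

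Genes that copy, transcribe or process mitochondrial DNA and RNA were called in part. Between WT and KO at 40 weeks 10.9% of all genes were called lower and 11.5% higher in WT, and at 10 weeks 5.15% and 5.7%. Of 10 genes of mitochondrial transcription, Tfam, which packages the DNA and starts transcription, was lower in WT than KO at 40 weeks (−0.30, adjusted P = 0.0117; −0.36 without KO replicate 2), and none was called between any other pair of the 6 main gastrocnemius groups. The 10-week value of Tfam was −0.20 (adjusted P = 0.141). Of 20 genes of RNA processing and stability in the tables, Angel2 was higher in WT than KO at 10 weeks (0.27, adjusted P = 0.0372) and at 40 weeks (0.47, adjusted P = 0.000265), and than KO+AAV at 40 weeks (0.33, adjusted P = 0.0135). In WT 6 were lower than in KO at 40 weeks (4 without KO replicate 2), led by Ptcd2 (−0.49, adjusted P = 0.00309), the RNA helicase Supv3l1 (−0.45, adjusted P = 0.00332) and Elac2 (−0.39, adjusted P = 0.00767), which cuts tRNA precursors at their 3′ ends. In KO+AAV against KO, Hsd17b10, a subunit of mitochondrial RNase P, was lower at 40 weeks (−0.26, adjusted P = 0.284; 3.25% of all genes called), and not without KO replicate 2 (−0.20).

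Of all genes, 10.9% were called lower and 11.5% higher in WT than KO at 40 weeks. At 10 weeks 5.15% were called lower in WT than KO, and 8.75% between WT and KO+AAV. Of 11 genes of DNA replication and upkeep, Tk2, a mitochondrial thymidine kinase (−0.63, adjusted P = 0.0106), and Twnk, the replicative helicase (−0.27, adjusted P = 0.02), were lower in WT than KO at 40 weeks. Without KO replicate 2 these values were −0.52 and −0.28. Rrm2b, a ribonucleotide reductase subunit, was lower in KO+AAV than KO at 10 weeks (−0.39, adjusted P = 0.23), where 2.63% of all genes were called. Of 13 regulators of mitochondrial biogenesis, the transcription factor Myc was lower in WT than KO at 10 weeks (−1.51, adjusted P = 0.000968) and 40 weeks (−1.17, adjusted P = 0.0101) and than KO+AAV at 10 weeks (−1.70, adjusted P = 0.000296). The coactivator Ppargc1a was higher in WT than KO at 40 weeks (0.67, adjusted P = 0.0094) and Gabpb1, a subunit of the factor NRF-2, lower (−0.57, adjusted P = 0.00312). Without KO replicate 2 the values at 40 weeks were −1.14 for Myc, 0.50 for Ppargc1a and −0.49 for Gabpb1, and of the nuclear genes named here as called between WT and KO at that age, each was called without it too. None of the 13 was called in KO+AAV against KO at either age. With age, 40-week KO replicate 2 included, Tk2 rose in KO (0.58, adjusted P = 0.0467), Elac2 rose in KO (0.32, adjusted P = 0.0653), Gabpb1 fell in WT (−0.56, adjusted P = 0.123), Slirp rose in WT (0.36, adjusted P = 0.371) and Myc fell in KO+AAV (−0.95, adjusted P = 0.0753). Of the interactions with age, Gabpb1 was called for WT against KO (−0.58, adjusted P = 0.161) and Rrm2b for KO+AAV against KO (0.49, adjusted P = 0.895). The shares of all genes called with age were 2.27% in WT and 12.1% both in KO and in KO+AAV. Those for the interactions were 4.47% (WT against KO) and 1.08% (KO+AAV against KO).

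The GFP vector in KO mice went with higher rRNA and tRNA counts in gastrocnemius. Against KO control, 8.24% of 14477 genes were called, 4.37% higher, and 23.5% had groups without overlap, as 3 against 3 libraries readily do. mt-Rnr2 stood at 9310, 8538 and 9335 normalized counts with GFP and at 5713, 5949 and 3485 in control. The groups were apart, by 0.88 ± 0.16 (adjusted P = 0.014). mt-Rnr1 stood at 5841, 4930 and 5763 with GFP and at 4046, 4084 and 2169 in control, also apart (0.74 ± 0.20, adjusted P = 0.0645). Control replicate 3 was lowest in both. The mt-Rnr1 call was lost without GFP replicate 1 (0.69) or 3 (0.70) and in DESeq2 (0.68), and the difference was 0.44 without control replicate 3.

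Of 8 tRNAs 5 were called higher with GFP. mt-Tq, a light-strand glutamine tRNA gene, stood at 233, 320 and 239 with GFP and at 121, 70.5 and 72.5 in control, a difference of 1.60 ± 0.20 (adjusted P = 0.00159). The others were mt-Tw (1.71, adjusted P = 0.0522), mt-Ta (1.54, adjusted P = 0.022), mt-Ts1 (0.65, adjusted P = 0.03) and mt-Ty (0.66, adjusted P = 0.0689). mt-Tw was not called without GFP replicate 1 (1.46), nor mt-Ty without it (0.58) or without control replicate 3 (0.45).

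All 13 mRNAs were nominally higher with GFP, with a median of 0.258 (all genes, 0.00421; 0.154 without GFP replicate 1 and 0.433 without GFP replicate 2), from 0.05 (mt-Nd4) to 1.81 (mt-Atp8). Only mt-Co2, a copied gene, was called, at 1792, 1933 and 1637 with GFP and 1543, 1476 and 1171 in control. These groups were apart (0.36 ± 0.11, adjusted P = 0.0971), and it was not called without GFP replicate 1 (0.36) or 2 (0.30), without control replicate 3 (0.24) or with the reads of its nuclear copy added (0.31). mt-Nd1 was at 99089, 69894 and 96231 with GFP and at 76187, 75411 and 69674 in control, with GFP replicate 2 among the controls. mt-Cytb was at 136930, 90292 and 133687 against 109625, 111861 and 90913, where GFP replicate 2 was the lowest of all 6. edgeR and DESeq2 each called 1 mRNA. At an adjusted P under 0.05, where 1.83% of all genes were called higher, no mRNA was.

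With GFP 6 nuclear-encoded subunits were called higher (24 of 24 above 0; median, 0.207; 4.37% of all genes), with Cox6c of complex IV (0.38, adjusted P = 0.0351) first. Of the biogenesis regulators 4 were called higher, among them Ppara (1.44, adjusted P = 0.0084) and Esrrg (0.95, adjusted P = 0.024), nuclear receptors that act on oxidative genes, and Elac2 was lower (−0.50, adjusted P = 0.0408). None of the transcription or replication genes was called. The make-up of the samples differed as well. All 8 slow fiber markers were called higher with GFP (median, 2.78; sums of 1722 to 2237 against 181 to 1115 CPM), fast fiber markers summed to 173514 to 180408 against 199732 to 217889 CPM, 8 of 10 macrophage markers were called higher (88.5 to 139 against 35.2 to 54.7 CPM) and 5 of 5 Schwann cell markers lower (55.7 to 75.5 against 132 to 168 CPM). Their part in the differences above was not tested.

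Outside skeletal muscle no mt mRNA was called between KO+AAV and KO by limma, edgeR or DESeq2, and at an unadjusted P under 0.05 limma had 1, in heart. In lung 3.96% of all genes were called, 3.06% higher. All 12 mRNAs tested were nominally higher in KO+AAV (median, 0.269; 0.172 without KO+AAV replicate 4), and mt-Co1 stood at 386047, 320577, 475263 and 504414 in KO+AAV and 304062, 309915, 364127 and 324214 in KO. KO+AAV replicate 2 lay among the KO values and the other 3 KO+AAV libraries above them all, and without that library 2 mRNAs were called. One tRNA of 4, mt-Tw, was called, at 103, 96.9, 153 and 148 in KO+AAV and 74.6, 49.2, 75.7 and 78.9 in KO (0.83 ± 0.23, adjusted P = 0.207), where 6.77% of all genes also had groups without overlap. That call was lost without KO replicate 2 (0.67) or KO+AAV replicate 3 (0.73) or 4 (0.74). Of the nuclear-encoded subunits 4 were called higher (median, 0.386), among them Ndufv1 (0.43, adjusted P = 0.186), as were Ppargc1a (0.62, adjusted P = 0.146), Fastk (0.18, adjusted P = 0.243) and Slc25a4, the ADP/ATP carrier of heart and muscle (1.22, adjusted P = 0.0936). Cardiomyocyte markers were higher in the same lungs, 7 of 8 called with a median of 2.97 and sums of 1695 to 5778 against 111 to 1138 CPM. None of the 8 was at 0 in either group, and their part was not tested. KO replicate 3, the highest KO lung in mt-Co1, held 204 CPM of brown adipocyte markers, and their part was not tested either.

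In heart 0.0829% of all genes (0.0719% higher) and 0 of 13 mRNAs were called. All 13 were nominally higher in KO+AAV (median, 0.348), but 0.192 without KO replicate 2. mt-Co1 stood at 3320610, 3719140, 4243290 and 4211350 in KO+AAV and at 4621700, 2168850, 4120250 and 2288570 in KO, where replicates 2 and 4 were low and replicates 1 and 3 as high as KO+AAV. The smallest P among the mRNAs was that of mt-Co3 (0.79 ± 0.34, adjusted P = 0.862). One of 9 tRNAs, mt-Tp, was called, at 521, 607, 543 and 535 in KO+AAV against 344, 342, 501 and 322 in KO (0.57 ± 0.16, adjusted P = 0.862). The groups were apart, as were those of 1.85% of all genes, and over 8 omissions (0.50 to 0.71) the call was kept only without KO replicate 3, and not without KO replicate 2 (0.53). It was also lost in edgeR (0.55), with array weights (0.34), with a replicate block, and when scaled to total reads (0.59) or to reads outside the mitochondrial chromosome (0.67). Leaving out KO replicate 1 or 3 gave 1 called mRNA. Nuclear-encoded subunits had a median of 0.186 (0.0316 without KO replicate 2), with none called.

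In liver 0.546% of all genes and 0 of 12 mRNAs were called, with a median of −0.033 (−0.104 to 0.0232 with each library left out in turn) and 4 above and 8 below 0. mt-Co1 stood at 645879, 634655, 633161 and 562229 in KO+AAV and at 668352, 567149, 605396 and 591239 in KO, with overlapping groups. In white fat 0.0711% of genes and 0 of 12 mRNAs were called, with a median of 0.278 and 11 above 0. mt-Co1 stood at 569791, 533121, 1002670 and 813622 in KO+AAV and 799862, 439568, 536776 and 678701 in KO, where KO+AAV replicate 3 was highest. Without KO replicate 2 the differences there were 0.13 ± 0.46 for mt-Cytb, 0.09 for mt-Co1 and −0.09 for mt-Nd1. KO+AAV white fat replicate 3 also held 485 CPM of brown adipocyte markers against at most 7.82 in the other 7 libraries. The median of the mRNAs was 0.0704 without that library, 0.526 without KO+AAV replicate 2 and 0.123 without KO replicate 2. None of the nuclear-encoded subunits, or of the genes of mitochondrial transcription, RNA processing, replication and biogenesis, was called in heart, liver or white fat.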

How the data were processed

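Gene expression was measured by RNA-seq of poly(A)-selected RNA in 72 libraries of 16 groups. Per the labels, the authors aligned reads to GRCm38/mm10 with HISAT2, counted them per gene with HTSeq and normalized them with DESeq2; the versions of HTSeq and DESeq2, the strand setting and the treatment of multi-mapped reads are not given in the sources used here. The deposited tables hold a gene-level signal, counts divided by each library's size factor as made by the authors, in 1 table for 66 libraries and 1 for the GFP experiment. Since each table was normalized separately, tests were run within a table. Of the 55401 genes 99.53% were paired with a symbol through GENCODE vM21.

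Values were tested on the scale log2(normalized count + 1), for genes with a mean above 5, with limma 3.58.1 (trended variance, two-sided) in R 4.3.3. The 6 main gastrocnemius groups shared a model with site as covariate, and the GFP experiment and each other tissue had models of their own. Fold changes are on this scale, which understates those of low genes. A gene was called at P under 0.01. The values were also divided by the worth of 1 read, which recovered whole reads (100% of positive values within 0.1 of a whole number), and these counts were tested with edgeR 4.0.16 (quasi-likelihood) and DESeq2 1.42.0 as alternatives. In WT against KO, limma, edgeR and DESeq2 called 1758, 1788 and 2032 genes at 10 weeks and 3637, 3510 and 3781 at 40 weeks; in KO+AAV against KO they called 426, 546 and 708, and 526, 506 and 587. The scripts were tested on simulated data.

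Copies of mitochondrial genes were found with blastn among the GENCODE vM21 transcripts (at least 100 bases at 90% identity) and as shared windows of 150 bases. The text names all 13 mRNAs and 2 rRNAs, tRNAs that were called or among the most abundant, and of each other list the members with an adjusted P under 0.05 (up to 4) or else the 2 with the smallest P. 1 gene that the rule picks is not reported here. The lists were genes of mitochondrial transcription, RNA processing, DNA replication and biogenesis, nuclear-encoded subunits, and cell type markers. The members and lists were chosen with earlier results of these data known. Nothing in the labels ties libraries to shared litters or days, and p-values measure only the spread between these samples. Same-numbered libraries were not taken as pairs. Alternatives were another pseudocount, other filters, other scalings, array weights, a replicate block, single sites, groups compared alone and each library left out. Adding the copies' reads, leaving out copied genes, leaving out each 10-week library, and testing nuclear genes without 40-week KO replicate 2 were chosen after seeing the data.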

Additional observations from a re-analysis of the deposited data

Results flagged for a closer look

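Of 238 groups of values examined (15 genes and the shares of reads, per group of 4 to 7 libraries), 22 had 1 library farther from its neighbor than a 95% limit for a single outlying value allows. Chance alone flags about 1 in 20 groups, and the values of 1 library move together. No explanation was tested for any of them.

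In 10-week WT gastrocnemius, replicate 4 stood above the other 5 libraries in the share of reads on the 2 rRNAs (0.89871% against 0.18415% to 0.36781%), in mt-Rnr1 (40521 normalized counts against at most 15908.7), in mt-Rnr2 (101049 against at most 45755.2), in mt-Nd2 (233499 against at most 171875) and in mt-Atp6 (5119.61 against at most 1152.81). In 10-week KO, replicate 6 was lowest in mt-Nd2 (101371 against at least 131948) and in mt-Cytb (202327 against at least 253602).

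In 40-week WT, replicate 1 was lowest in mt-Co3 (226.843 against at least 833.602) and in mt-Nd3 (17.7916 against at least 71.9012), and replicate 3 was lowest in mt-Nd5 (196477 against at least 205219). KO replicate 5 was highest in mt-Nd4 (160722 against at most 120337). KO+AAV replicate 4 was lowest in mt-Rnr2 (10284.6 against at least 13666.7).

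In liver, KO replicate 1 was highest in the share of reads on the 13 mRNAs (4.1937% against at most 3.7108%) and in mt-Cytb (397296 against at most 281159). KO+AAV replicate 2 was highest in mt-Cytb (361861 against at most 287149), and KO+AAV replicate 4 was highest in mt-Rnr1 (63392.2 against at most 44227.4) and lowest in mt-Co1 (562229 against at least 633161). In white fat, KO+AAV replicate 3, the library with brown adipocyte markers, was highest in mt-Rnr1 (43300.9 against at most 19564.2) and in mt-Rnr2 (99916.9 against at most 39842.9). In heart, KO+AAV replicate 1 was lowest in mt-Co2 (20161.1 against at least 25386.7). In lung, KO replicate 3, the lung library with the most brown adipocyte markers, was highest in mt-Nd3 (205.953 against at most 153.34) and in mt-Nd6 (2167.77 against at most 1701.74).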

How the results depend on the processing

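The median log2 fold change of the mt mRNAs moved by less than 1 SD of the libraries' means under all 236 alternatives and all 185 omissions of 1 library, over 17 comparisons. This is a wide limit, since the SD ran from 0.144 (liver) to 0.509 (white fat) and often exceeded the median itself. In white fat the median of 0.278 ran from 0.0704 to 0.526 within it, so staying inside does not show a stable value. Counts of called mRNAs moved too. Higher in WT than KO at 10 weeks, 0 became 3 in DESeq2 and 2 in edgeR, and 0 to 1 with a library left out. Higher in WT than KO+AAV at 10 weeks, 3 became 6 in DESeq2 and in edgeR, 0 in either site alone, 1 (none of mt-Nd1, mt-Nd2 and mt-Nd5) with the groups compared alone, and 1 to 4 with a library left out. At 40 weeks the omissions gave 0 to 1 higher in WT than KO and 0 to 3 higher in WT than KO+AAV. With age in WT, 1 was lower in DESeq2, in edgeR and without the site term, with omissions giving 0 to 1 in each direction. In the interaction of WT against KO with age, 1 was lower in DESeq2 and in edgeR. In Novogene, 2 were higher with array weights. With GFP, 1 became 0 at an adjusted P under 0.05 or with copies' reads added, 2 when scaled to total reads or to reads outside the mitochondrial chromosome, and 0 to 2 with a library left out. In lung, 0 became 4 with array weights and 0 to 2 by omissions, and in heart 0 to 1 by omissions. The cause was not tested; a test of fewer libraries has less power by construction.

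Same-numbered libraries of 2 groups did not deviate together throughout (correlations from −0.383 to 0.577, in no pair of groups all above 0.1). In white fat replicates 1, 2 and 4 correlated at 0.403, 0.48 and 0.577, and replicate 3 at −0.383. Pairs of 40-week KO and KO+AAV gastrocnemius ran from 0.00676 to 0.366. With the number as a replicate block, medians were 0.208, −0.182 and 0.417 at 10 weeks (WT against KO, KO+AAV against KO, WT against KO+AAV), 0.0588, −0.217 and 0.277 at 40 weeks, 0.215, 0.28 and 0.3 with age in WT, KO and KO+AAV, 0.258 with GFP, and 0.269, 0.348, −0.033 and 0.278 in lung, heart, liver and white fat. The block gave 1 called mRNA in place of 2 in WT against KO+AAV at 40 weeks and 2 in place of 1 with GFP, and the calls of mt-Tp in heart and of mt-Ts1 with age in WT were lost. Counts of tRNAs and of the copied genes are limited by few or ambiguous reads.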

Other observations

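mt-Nd6, the light-strand mRNA, stood at 36.6 to 609 CPM in the ICBR libraries of liver, heart, white fat and lung, at 121 to 214 CPM in the ICBR gastrocnemius libraries and at 2527 to 4614 CPM in the Novogene gastrocnemius libraries. The other tissues thus ranged from below to above the ICBR muscle libraries and lay below all Novogene muscle libraries. No library of these tissues from Novogene was analysed here, so site and tissue cannot be told apart in them.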
